A study of Mus musculus with 12 samples.

Results

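Gene expression without N-acetyl-L-cysteine (NAC) was compared between LSK cells that lack Mll5 and wild-type LSK cells, on 6 of the 12 arrays of the series. LSK cells are the bone marrow fraction that carries no lineage marker and has Sca1 and Kit on its surface, and the cells were sorted by flow cytometry from mouse marrow and used without culture. The members were chosen by the labels: 3 arrays of Mll5-/- mice and 3 arrays of Mll5+/+ mice, all on the C57BL/6 strain and all without NAC (mock). The other 6 arrays, 3 of each genotype, came from mice whose drinking water held NAC, an antioxidant, at 1 g per liter, begun when their Mll5+/- parents were mated and kept up for life. The knockout is carried by every cell of the animal, so the marrow niche and the sorted cells lacked the gene alike. The sources used here give neither the ages of the mice nor the deleted part of the gene, and they do not say that each array is a separate mouse. A p-value therefore reflects the spread of these arrays, which could be technical.

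Mll5, now named Kmt2e, encodes a relative of the MLL histone methyltransferases with a PHD finger that binds methylated histone H3 and a SET domain for which no clear enzyme activity is known. LSK cells hold the long-term haematopoietic stem cells together with multipotent progenitors, which begin to express lymphoid, myeloid or megakaryocytic genes before they commit to a lineage. Loss of Mll5 is known to impair the self-renewal of these cells, and the title of the series ties their failure after DNA damage to reactive oxygen species, type I interferon and the apoptosis regulator Bid.

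The values were log2 signals, and each of 22180 gene symbols was represented by its brightest probe set, taken as the mean over the 12 arrays. A gene was counted as well expressed where its mean over the 12 arrays was at least 6, which held for 4464 genes, or 20.1%, while the median gene had 3.17. Array medians lay between 2.89 and 2.96, and the pairs of mock arrays of one genotype correlated at 0.981 to 0.987 across genes, against 0.982 to 0.987 for pairs of different genotype. With 3 arrays a group the median standard error (SE) of a log2 difference was 0.16, which is what limits the precision. Of the markers in the LSK label, Kit gave 9.02 to 9.24 over the 6 arrays, while Sca1 could not be checked because no single-symbol probe set reads its gene, Ly6a. Cd34, which is not among the markers that define the label, gave 10.33 to 10.52. The label was therefore checked only in part. The 3 measured Y-linked genes gave 1.75 to 2.25 in the 6 arrays, below the median gene in every one.

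Kmt2e, the targeted gene, was not lower in every mutant array. Its probe set gave 7.51, 7.38 and 6.93 in the 3 mutant arrays and 7.49, 7.39 and 7.68 in the 3 wild-type arrays. The groups overlapped, since mutant replicate 1 lay within the wild-type range, replicate 2 lay 0.01 under it and replicate 3 lay further below, and the log2 difference was -0.25 (SE 0.17, limma adjusted p = 0.843). It is not known here whether this probe set lies in the deleted sequence, and its signal is therefore no check of the genotype.

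The genes beside Kmt2e differed more than Kmt2e itself. Srpk2, a kinase of splicing factors that is the next measured gene on one side in the GRCm38.p6 annotation, gave 7.58, 7.73 and 7.60 in the mutant and 6.93, 6.52 and 7.17 in wild type. All 3 mutant arrays lay above all 3 wild-type arrays, with a log2 difference of 0.76 (SE 0.16, 1.70-fold, adjusted p = 0.358). AI506816, an uncharacterised gene and the second measured gene on that side, fell by 2.53 (SE 0.25, adjusted p = 0.00313), which is 5.79-fold. Its signal was 4.28, 3.89 and 3.29 in the mutant and 6.58, 6.61 and 5.87 in wild type, so the highest mutant array lay far under the lowest wild-type array. The next measured gene on the other side, 5031425E22Rik, differed by -0.50 with overlapping groups (SE 0.30, adjusted p = 0.827). Among the 20 measured genes within 10 places of Kmt2e, 1 passed the test and 6 had groups that did not overlap, 3 higher and 3 lower, where 5.94% and 5.46% of all genes were so. The median difference of the 20 was 0.03. The part that the position beside the deleted gene has in these values was not tested.

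Few single genes passed the test. Of all 22180 genes, limma with Benjamini-Hochberg adjustment called 2 at an adjusted p under 0.05 (0.00902%), while 1471 genes (6.63%) had an unadjusted p under 0.05, 787 of them higher in the mutant and 684 lower. The first of the 2 was AI506816. The second, the uncharacterised 1190005I06Rik, rose by 1.38 (SE 0.16, adjusted p = 0.0117). It gave 4.05, 4.0 and 4.40 in the mutant and 2.72, 2.78 and 2.80 in wild type, where all 3 arrays lay under the level of the median gene. When all 41345 probe sets were fitted and adjusted together, 2 passed (0.00484%), AI506816 (adjusted p = 0.0329) and a probe set without a gene symbol, while 1190005I06Rik did not (adjusted p = 0.0664). Both calls rest on few arrays. Fitted on the 6 mock arrays alone, AI506816 had an adjusted p of 0.0733 and 1190005I06Rik one of 0.0569. Across the other settings of the fit by gene these ranged from 0.000639 to 0.0375 and from 0.00912 to 0.103. That of 1190005I06Rik was 0.0607 without mutant replicate 1, 0.103, 0.0958 and 0.0548 without wild-type replicates 1, 2 and 3, and 0.0832 with the replicate number as a block. With NAC the difference of AI506816 was -1.80 (SE 0.25), again with groups apart, and that of 1190005I06Rik was -0.03 (adjusted p = 0.359 for the interaction).

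**Figure D1:**
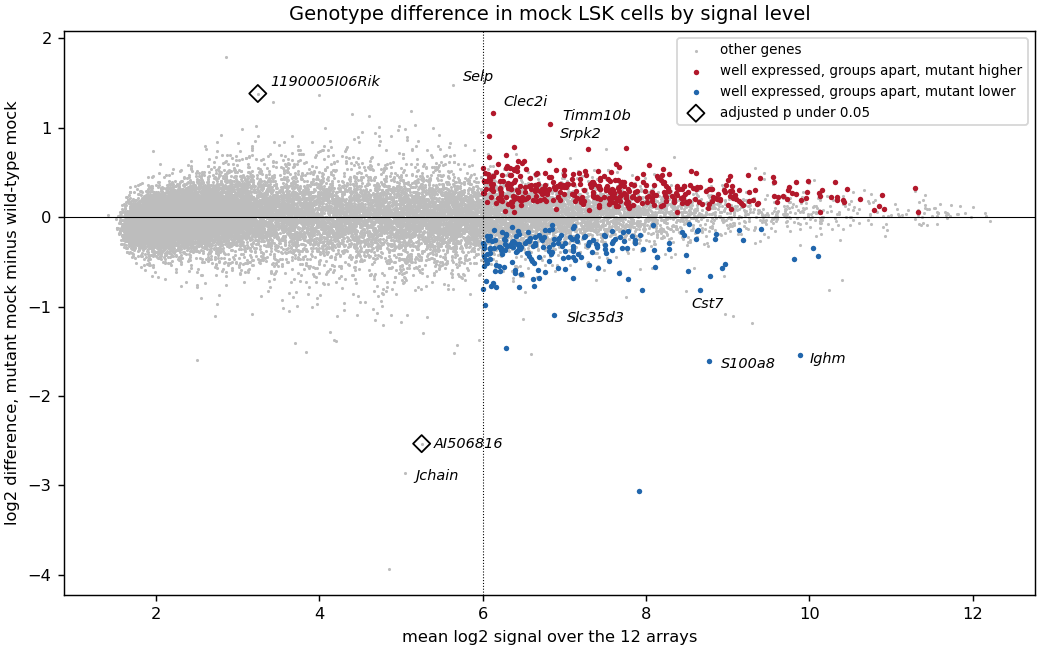
Log2 difference between mutant and wild-type mock cells (y axis) against the mean log2 signal over the 12 arrays (x axis) for 22180 genes. Diamonds mark the 2 genes past an adjusted p of 0.05, colours mark well-expressed genes whose 3 mutant arrays all lay above (399, red) or below (199, blue) the 3 wild-type arrays, and the dotted line marks a mean of 6.

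Among the 4464 well-expressed genes limma called 0. The smallest adjusted p was 0.294 over all genes and 0.257 when only these genes were adjusted, and 352 had an unadjusted p under 0.05, 221 higher and 131 lower. Differences were small: 135 genes differed by at least 0.5 on the log2 scale and 13 by at least 1. Most of these larger differences were lower in the mutant, with 49 of the 135 higher in the mutant and 86 lower, and 2 of the 13 higher and 11 lower. For single genes the separation of the groups is therefore given beside the difference, and groups are called apart where all 3 mutant arrays lay on one side of all 3 wild-type arrays.

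By that measure more well-expressed genes lay higher in the mutant than lower. The mutant arrays were all higher for 399 genes (8.94%) and all lower for 199 (4.46%), while over all 22180 genes the counts were 1318 (5.94%) and 1211 (5.46%). Of the 598 well-expressed genes with groups apart, 66.7% were thus higher, but this share was 53.4% (328 of 614) after a fresh quantile normalization and 51.1% (282 of 552) with each array centred on its median, so the excess of higher genes depends on the scaling. It was largest at the top of the range, without falling steadily below it. Among 973 genes with a mean of 8 or above, 137 were apart and higher and 29 apart and lower, against 262 and 170 of the 3491 genes between 6 and 8, 226 and 256 of the 4599 genes between 4 and 6, and 188 and 116 of the 2685 genes between 3 and 4. Of the 10432 genes below 3, 505 were apart and higher and 640 apart and lower, so lower genes were in excess there. The median difference was 0.06 for genes at 8 and above, 0.03 both between 6 and 8 and between 3 and 4, -0.02 below 3, and 0.00 over all genes.

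With antibody genes and predicted or clone names left out, the 25 largest differences of well-expressed genes apart and higher ran from 0.52 to 1.16, or 1.44-fold to 2.24-fold, with adjusted p from 0.294 to 0.798. Clec2i, a C-type lectin-like ligand of natural killer cell receptors, stood first with 6.55, 6.25 and 7.02 in the mutant and 5.39, 5.40 and 5.54 in wild type (1.16, SE 0.21). Its 3 wild-type arrays lay within 0.15 of each other and well under the mutant arrays, which spread more widely. Timm10b, a small chaperone of protein import into mitochondria, gave 6.93, 7.07 and 7.37 against 5.69, 6.59 and 5.97 (1.04, SE 0.35), with wild-type replicate 2 near the lowest mutant array. Ms4a6b, a membrane protein of the MS4A family, gave 6.77, 6.53 and 6.65 against 5.74, 5.51 and 5.96 (0.91, SE 0.19).

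The others of these 25 had varied functions. Acss1, the acetyl-CoA synthetase of mitochondria, differed by 0.78 (SE 0.27), Prorp, the nuclease subunit of mitochondrial RNase P, by 0.61 (SE 0.16), and Coa8, an assembly factor of cytochrome c oxidase, by 0.59 (SE 0.14). The mitochondrial ribosomal proteins Mrpl15 and Mrpl47 differed by 0.54 (SE 0.15) and 0.53 (SE 0.26). Snrpa1, a protein of the U2 spliceosomal particle, gave 8.35, 7.98 and 8.30 in the mutant and 7.57, 7.68 and 7.63 in wild type (0.58, SE 0.12). The wild-type arrays agreed within 0.11, and the lowest mutant array lay above all of them. Hnrnpa3, an RNA-binding protein, differed by 0.63 (SE 0.21) and Usp14, a deubiquitinating enzyme of the proteasome, by 0.64 (SE 0.15). Nup37 of the nuclear pore (0.55, SE 0.14), Cep295 of the centriole (0.55, SE 0.14), Rab21 of endosomes (0.57, SE 0.13) and Hikeshi, a nuclear import carrier of heat shock protein (0.52, SE 0.16), were also among them. So were the amino acid transporter Slc36a4 (0.78, SE 0.31), the signalling proteins Irak3 (0.57, SE 0.17) and Map2k5 (0.55, SE 0.24), the chemokine Ccl9 (0.54, SE 0.13) and Brca2, which loads the recombinase in DNA break repair (0.56, SE 0.14). The rest were Srpk2 and Adgrg7, Bcap29, Tmem69 and Tmem229b-ps, with differences of 0.53 to 0.76.

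Among those apart and lower, the 25 largest differences ran from -1.61 to -0.59, or 1.51-fold to 3.05-fold, with adjusted p from 0.358 to 0.799. S100a8, a calcium-binding protein abundant in neutrophils, gave 8.71, 7.47 and 6.31 in the mutant and 9.41, 8.95 and 8.96 in wild type (-1.61, SE 0.45). The 3 mutant arrays spread over 2.40 and the wild-type arrays over 0.46, and mutant replicate 1 came within 0.24 of wild type. Slc35d3, a relative of nucleotide sugar transporters, gave 6.74, 5.91 and 6.76 against 7.72, 7.06 and 7.90 (-1.09, SE 0.27). Clnk, an adaptor of immune receptor signalling, gave 5.80, 5.91 and 5.21 against 6.82, 7.03 and 6.01 (-0.98, SE 0.26). In both genes the lowest wild-type array lay only 0.10 to 0.30 above the highest mutant array.

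The other lower genes had varied functions as well. Nfkbid, a nuclear inhibitor of the NF-kB family, differed by -0.77 (SE 0.21), the chemokine Ccl4 by -0.66 (SE 0.22) and the protease inhibitor Cst7 by -0.81 (SE 0.26). Sesn3, a sestrin that restrains growth signalling, differed by -0.80 (SE 0.20) and Dele1, which relays mitochondrial stress, by -0.72 (SE 0.20). The immediate early transcription factors Egr1 and Fosb differed by -0.69 (SE 0.27) and -0.63 (SE 0.20), and Csrnp1, another nuclear factor, by -0.68 (SE 0.20). Flt3, the receptor that marks lymphoid-primed progenitors, differed by -0.60 (SE 0.24) and Ezh1, a Polycomb methyltransferase, by -0.62 (SE 0.25). Cox6b2, a cytochrome c oxidase subunit, gave 7.41, 7.65 and 7.59 in the mutant against 8.60, 8.42 and 8.06 (-0.81, SE 0.15), and Sdc1, the proteoglycan syndecan-1, gave 5.59, 5.80 and 5.96 against 6.42, 6.64 and 6.50 (-0.74, SE 0.15). In both, every mutant array lay at least 0.41 below every wild-type array. The remaining ones were Gnptg, Mettl7a1, Med31, Smim24, Nudt4, Pxmp4, Cyria, Gprc5b, Ociad2 and Tuba1a, from -0.78 to -0.59.

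Among dimmer genes, those with the smallest p that did not pass included Cxcr2, a chemokine receptor, and Selp, the adhesion molecule P-selectin. Cxcr2 gave 5.46, 5.70 and 5.35 in the mutant and 4.78, 4.31 and 4.37 in wild type (1.02, SE 0.18, adjusted p = 0.291). On the lower side Chrnb1, an acetylcholine receptor subunit, gave 4.02, 4.08 and 4.45 against 5.10, 5.11 and 5.20 (-0.95, SE 0.14, adjusted p = 0.105, and 0.0406 without mutant replicate 3). St3gal6, a sialyltransferase, differed by -0.98 (SE 0.15, adjusted p = 0.119) and Zfp972, a zinc finger gene, by -1.40 (SE 0.27, adjusted p = 0.358). Groups did not overlap in any of these 5.

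**Figure D2:**
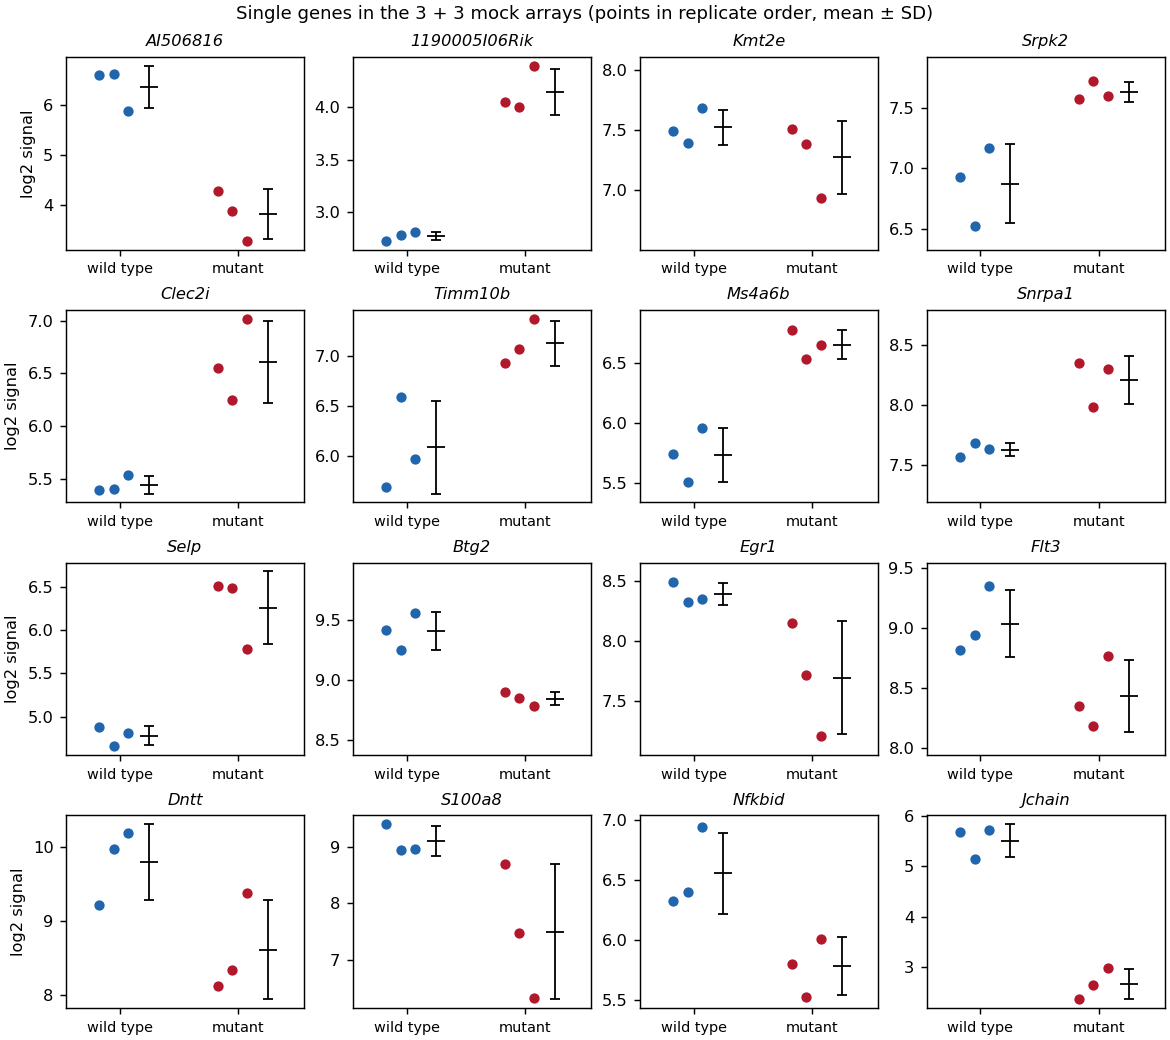
Log2 signal (y axis) of 16 genes in each of the 3 wild-type mock arrays (blue) and 3 mutant mock arrays (red), with the mean and SD beside the points; each panel has its own range. The groups overlap for Kmt2e and Dntt and are apart for the other genes.

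The gene lists describe which functions these differences fall into. Of the 666 members of the 38 lists limma called 0 over all genes (smallest adjusted p = 0.291, 80 members at an unadjusted p under 0.05), so a list is given by how many members were higher or lower, how many had groups apart, and its median difference beside the medians of 0.00 over all genes and 0.04 over well-expressed genes. Counts of members with groups apart are read against 8.94% higher and 4.46% lower among well-expressed genes and 5.94% and 5.46% among all genes. Members named beyond the 4 largest differences of a list were chosen after their values were seen.

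Genes of early lymphoid priming were lower in the mutant and stem cell genes were mixed. Of 18 measured genes of multipotent and lymphoid-primed progenitors, 15 were lower and 3 higher, the median was -0.27, and 4 were apart and lower against 0 apart and higher, beside 5.46% and 5.94% of all genes. Dntt, the template-free polymerase of antigen receptor joining, gave 8.12, 8.34 and 9.37 in the mutant and 9.21, 9.97 and 10.19 in wild type (-1.18, SE 0.31, adjusted p = 0.471). Mutant replicate 3 overlapped the wild-type arrays, and the other 2 mutant arrays lay at least 0.87 below them. Ighm, the heavy chain of IgM that progenitors transcribe before rearrangement is complete, gave 8.33, 8.04 and 9.30 against 10.21, 9.45 and 10.65 (-1.55, SE 0.43). Flt3 gave 8.35, 8.19 and 8.77 against 8.82, 8.94 and 9.35. The membrane adaptor Lax1 (-0.81, SE 0.21) and the receptor Notch1 (-0.29, SE 0.11) were apart as well, while Il7r, the interleukin 7 receptor (-0.89, SE 0.40), and Rag2 of the recombinase (-1.15, SE 0.46) had overlapping groups. In a bulk sample fewer cells of a type and less RNA per cell cannot be told apart. The list's mean per array lay at -0.47, -0.64 and -0.17 in the mutant and -0.25, -0.04 and 0.29 in wild type, relative to the wild-type mean, so the groups overlapped. The median was -0.17 without wild-type replicate 3.

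Stem cell genes had no single direction. Of 22 measured genes of long-term stem cells 15 were higher and 7 lower, with a median of 0.14 that was 0.07 without wild-type replicate 1, and the 8 well-expressed ones split 4 and 4 with a median of -0.13. Tek, the angiopoietin receptor, gave 3.78, 3.99 and 4.40 in the mutant and 3.42, 3.17 and 3.53 in wild type (0.68, SE 0.26), and it was apart together with Esam, an adhesion molecule of stem cells (0.33, SE 0.22). Both lay near the level of the median gene. Procr, the protein C receptor used to isolate stem cells, differed by 0.44 (SE 0.19), Gprasp2 by -0.71 (SE 0.22) and Hoxa9, a homeobox factor of stem and progenitor cells, by -0.48 (SE 0.18), with overlapping groups in all 3. The 16 HOX cluster genes had a median of 0.04, and Hoxb6 alone was apart (1.02, SE 0.31, from 2.92, 3.56 and 4.46 in the mutant against 2.54, 2.73 and 2.61).

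Megakaryocyte and platelet genes were mostly higher, and 4 of the 16 measured were well expressed. Of the 16, 13 were higher with a median of 0.27, which was 0.15 without wild-type replicate 3. Apart and higher were 2 (12.5%) and apart and lower 1 (6.25%), beside 5.94% and 5.46% of all genes. Selp, which platelets store in their granules, gave 6.51, 6.49 and 5.78 in the mutant and 4.88, 4.66 and 4.81 in wild type (1.48, SE 0.26, adjusted p = 0.294). Every mutant array lay at least 0.90 above every wild-type array, and with NAC the difference was 1.48 again. Itga2b, the platelet integrin chain also known as CD41, gave 5.52, 5.56 and 5.63 against 5.16, 5.14 and 5.14 (0.42, SE 0.17). The platelet glycoprotein gene Gp5 differed by 0.48 (SE 0.31), and Plek, the protein kinase C substrate pleckstrin, was the one that was apart and lower (-0.35, SE 0.13). The list's mean per array was apart, at 0.31, 0.41 and 0.12 in the mutant against 0.06, 0.09 and -0.15. Its median per array was apart too, at 0.21, 0.42 and 0.23 against -0.005, 0.05 and -0.055. The log2 of its summed signal overlapped, since the lowest mutant array gave 9.958 and the highest wild-type array 9.961.

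Genes of granulocyte and monocyte progenitors followed single arrays more than genotype. Of 17 measured 13 were lower, but only Cst7 was apart, and the median of -0.11 was 0.02 without mutant replicate 3, 0.01 without wild-type replicate 1 and -0.32 without mutant replicate 1. Elane, the neutrophil elastase, gave 10.32, 9.84 and 8.24 in the mutant and 11.12, 9.98 and 9.75 in wild type (-0.82, SE 0.47). Mutant replicate 3 was low and wild-type replicate 1 high, and the list's means per array in those 2 were -0.66 and 0.50. Mutant replicate 3 was lowest in S100a8 as well, and S100a9, its partner, gave 5.45, 4.90 and 4.26 against 6.79, 5.78 and 6.17 (-1.38, SE 0.33).

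Markers of mature cells were measured beside these results. Of 14 mature neutrophil genes 9 had a mean under the median gene, among them the granule gene Ngp and the surface marker Ly6g, and the log2 of their summed signal was 7.80 to 9.40 in the mutant and 9.39 to 9.87 in wild type. S100a8, S100a9 and Cxcr2 were the 3 with groups apart, and Cxcr2 went the other way. Of 14 plasma cell genes 11 were lower, and Jchain, the joining chain of secreted antibodies, gave 2.36, 2.64 and 2.97 in the mutant and 5.68, 5.14 and 5.73 in wild type (-2.86, SE 0.61, adjusted p = 0.358, and 0.011 when only the mock arrays were fitted), and with NAC the difference was -2.70. Among 21 immunoglobulin segments, which include Ighm, 17 were lower. Of the 21, 4 were apart and lower and 0 apart and higher, beside 5.46% and 5.94% of all genes. The summed signal of the plasma cell genes ran from 8.98 to 9.29 in the mutant and from 9.26 to 9.46 in wild type, and that of 14 B cell genes, 10 of them lower and 4 of those apart, from 7.56 to 7.82 against 7.78 to 8.06. The plasma cell list's mean per array was apart, at -0.25, -0.47 and -0.35 in the mutant against 0.10, -0.19 and 0.09. Its median difference was -0.045, and its median per array overlapped, at -0.005, -0.21 and -0.05 against 0.06, -0.18 and 0.12. Without mutant replicate 2, 6 of the 14 were lower, and 7 without wild-type replicate 1. Macrophage genes (7 of 13 higher), mast cell, basophil and eosinophil genes (4 of 12), T and NK cell genes (6 of 13, with 12 of the 13 under the median gene) and endothelial and stromal genes (6 of 14) overlapped between the groups in their summed signal. Dendritic cell and MHC class II genes (3 of 10 higher) and erythroid genes (8 of 13) overlapped too. The part of such cells in the lymphoid and neutrophil differences was not tested.

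**Figure D3:**
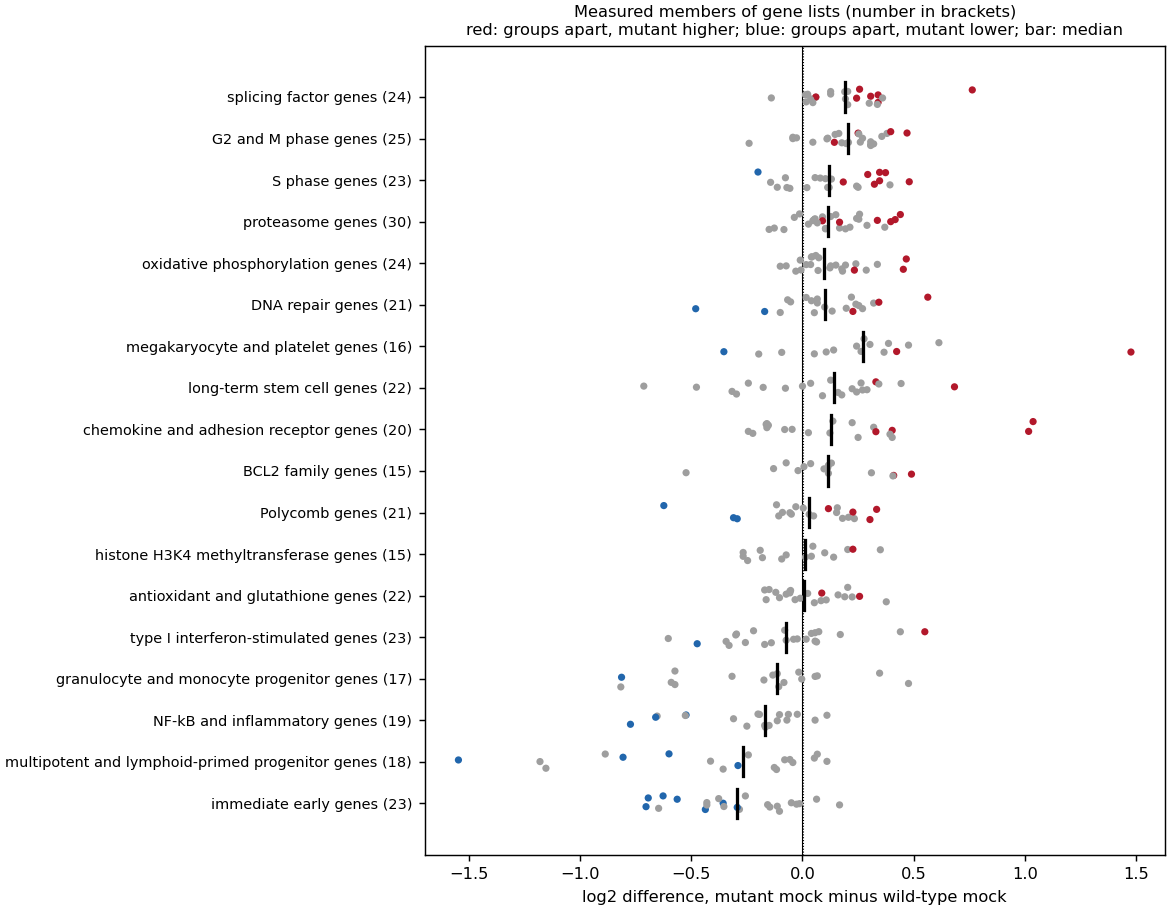
Log2 difference between mutant and wild-type mock cells (x axis) of every measured member of 18 gene lists, with the number of members in brackets, a bar at the median and members with groups apart in red (higher) or blue (lower). Of 24 splicing factor genes 23 lie right of 0, and of 23 immediate early genes 21 lie left of 0.

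Cell cycle genes were mostly higher in the mutant, beside 58.5% of all well-expressed genes that were higher. Of 25 measured genes of G2 and M phase 21 were higher, with a median of 0.21, and 4 were apart and higher against 0 apart and lower. Of 23 S phase genes 17 were higher, with a median of 0.12, and 7 were apart and higher against 1 apart and lower, which compares with 8.94% and 4.46% of well-expressed genes. The promoters of 3 members are shown because both lists are known to be driven through shared promoter elements. The windows run from 250 bases before to 50 bases after the start of transcription and were taken from RefSeq on GRCm38.p6, written 5′ to 3′ on the gene's own strand. Capitals mark matches, on either strand, to the CCAAT box (CCAAT), the CHR element (TTTGAA) and the E2F element (TTTCCCGC). In Cdca8 the CHR match and the last CCAAT match share 1 base and form 1 run of capitals.
Kif11 (chr19:37376132-37376431, plus strand): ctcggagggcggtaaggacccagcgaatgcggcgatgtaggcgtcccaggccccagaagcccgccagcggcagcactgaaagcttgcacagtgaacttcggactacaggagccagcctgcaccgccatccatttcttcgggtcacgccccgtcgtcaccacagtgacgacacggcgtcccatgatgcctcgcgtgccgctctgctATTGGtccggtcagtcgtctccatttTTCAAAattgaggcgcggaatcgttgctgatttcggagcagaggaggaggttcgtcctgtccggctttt
Cdca8 (chr4:124936868-124937167, minus strand): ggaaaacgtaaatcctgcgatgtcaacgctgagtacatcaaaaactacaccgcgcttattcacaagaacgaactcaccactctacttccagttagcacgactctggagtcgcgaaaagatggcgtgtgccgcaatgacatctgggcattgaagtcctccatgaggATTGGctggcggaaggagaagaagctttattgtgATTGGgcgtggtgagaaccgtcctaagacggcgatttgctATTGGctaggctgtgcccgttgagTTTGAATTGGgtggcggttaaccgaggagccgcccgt
Mcm3 (chr1:20820263-20820562, minus strand): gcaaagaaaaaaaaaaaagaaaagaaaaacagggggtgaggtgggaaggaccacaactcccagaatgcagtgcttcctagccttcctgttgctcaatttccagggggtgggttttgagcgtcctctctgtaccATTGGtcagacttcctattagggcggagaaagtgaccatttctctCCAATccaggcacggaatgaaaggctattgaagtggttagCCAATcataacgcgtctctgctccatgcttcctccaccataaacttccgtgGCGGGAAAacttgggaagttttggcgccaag

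A CCAAT box was found in 18 of the 21 measured G2 and M phase genes that have a promoter in the table (85.7%) and the CHR element in 17 of 21 (81%), while 37.9% and 18.1% of all 27025 promoters hold them. The E2F element was found in 5 of 19 S phase genes (26.3%) and in 1.11% of all promoters, and the CCAAT box in 14 of 19 (73.7%). For comparison, the CHR element was found in 3 of 19 S phase genes (15.8%), and the E2F element in 0 of 21 G2 and M phase genes. These matches describe the letters of the windows and not the binding of a factor.

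The members with these promoters had the following values. Kif11, a kinesin that separates the spindle poles, gave 7.98, 7.73 and 7.66 in the mutant and 7.37, 7.67 and 7.19 in wild type (0.38, SE 0.16), where wild-type replicate 2 overlapped. Cdca8, the borealin subunit of the chromosomal passenger complex, gave 7.59, 7.54 and 7.38 against 7.06, 7.28 and 6.98 (0.40, SE 0.12, adjusted p = 0.609). Mcm3, a subunit of the replicative helicase, gave 8.51, 8.38 and 8.68 against 8.15, 8.13 and 8.25 (0.35, SE 0.14), and both genes were apart.

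Among the other cell cycle genes, the kinesins Kif20a and Kif2c differed by 0.47 (SE 0.15) and 0.36, and Kif20a was apart. Aurkb, the kinase of the passenger complex, and cyclin A2 (Ccna2) were apart with 0.25 (SE 0.14) and 0.14 (SE 0.12). In S phase the ribonucleotide reductase subunits Rrm2 and Rrm1 were apart with 0.48 (SE 0.18) and 0.32 (SE 0.11). Rrm1 gave 8.72, 8.60 and 8.72 in the mutant and 8.39, 8.39 and 8.29 in wild type, a gap of 0.21 between the groups. The helicase subunits Mcm2 (0.35, SE 0.14), Mcm4 (0.29, SE 0.11) and Mcm6 (0.18, SE 0.11) and the polymerase subunit Pola1 (0.37, SE 0.14) were apart and higher, and Gins1, another replication factor, differed by 0.39 with overlapping groups. Cdc45, which works with the same helicase, was the 1 that was apart and lower (-0.20, SE 0.12).

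Both cell cycle medians moved with single arrays. Without wild-type replicate 3 the median of G2 and M phase genes was 0.11. That of S phase genes was 0.03 without mutant replicate 3, 0.20 without mutant replicate 1 and 0.18 without mutant replicate 2. The mean per array of the S phase list was apart, at 0.07, 0.08 and 0.26 in the mutant against 0.03, 0.00 and -0.03 in wild type. For G2 and M phase it overlapped, since wild-type replicate 2 (0.21) lay among the mutant arrays (0.28, 0.18 and 0.13). After a fresh quantile normalization 20 of 25 G2 and M phase genes were higher with a median of 0.17, and 2 were apart and higher. Of the 23 S phase genes 16 were then higher with a median of 0.10, and 6 were apart and higher. On that scale 51.8% of well-expressed genes were higher. With NAC the median was 0.08 for G2 and M phase and 0.05 for S phase.

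Splicing factor genes were nearly all higher on the deposited scale, and less uniformly so after rescaling. All 24 measured members were well expressed and 23 of them were higher, with a median of 0.19, beside 58.5% of all well-expressed genes that were higher. Of the 24, 7 were apart and higher and 0 apart and lower, beside 8.94% and 4.46% of well-expressed genes. After a fresh quantile normalization 18 of 24 were higher with a median of 0.13, with arrays centred on the median 20 of 24 with 0.16, and without wild-type replicate 1 the median was 0.12. Srsf1, an SR protein that defines exons, gave 9.08, 8.76 and 8.73 in the mutant and 8.39, 8.72 and 8.44 in wild type (0.34, SE 0.20), with a gap of only 0.01 between the groups. Prpf8, the core protein of the spliceosome, gave 9.23, 9.04 and 9.10 against 8.80, 8.83 and 8.82 (0.31, SE 0.12). Its wild-type arrays agreed within 0.03 and the lowest mutant array lay 0.21 above them. Srsf4 gave 7.02, 7.18 and 7.01 against 6.77, 6.62 and 6.80 (0.34, SE 0.15). The RNA-binding proteins Hnrnpu (0.26, SE 0.12) and Hnrnpc (0.24, SE 0.10) were also apart, as were Srsf5 (0.06) and Srpk2, the gene beside Kmt2e and the largest difference of the list. U2af1, which reads the end of introns, differed by 0.36 (SE 0.20) with overlapping groups. The list's mean per array was apart, at 0.27, 0.12 and 0.16 in the mutant against -0.06, -0.01 and 0.07. With NAC 11 of the 24 were higher with a median of -0.005.

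Genes of protein turnover and respiration were higher by smaller amounts. Of 30 measured proteasome genes 25 were higher with a median of 0.12, 6 apart and higher and 0 apart and lower, beside 8.94% and 4.46% of well-expressed genes. The list's mean per array overlapped, at 0.18, 0.08 and 0.17 in the mutant against -0.01, 0.08 and -0.07. With NAC 29 of the 30 were higher, and the median was 0.14. The median in mock was 0.08 after a fresh quantile normalization and 0.18 without wild-type replicate 2. Psma2, a subunit of the core particle, gave 8.50, 8.14 and 8.33 in the mutant and 7.76, 8.09 and 7.87 in wild type (0.42, SE 0.14), and Psma1 differed by 0.44 (SE 0.18). Psmd12 of the regulatory particle gave 8.12, 8.21 and 8.09 against 7.65, 8.01 and 7.57 (0.40, SE 0.13), and Psmd14, its deubiquitinating subunit, gave 7.12, 6.89 and 7.04 against 6.67, 6.64 and 6.73 (0.34, SE 0.12). The 4 were apart, Psmd14 by 0.16 and Psma2 by 0.05. Psmc2, which lies 10 measured genes from Kmt2e, differed by 0.37 (SE 0.18) with overlapping groups.

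Of 24 oxidative phosphorylation genes 19 were higher with a median of 0.10, which was 0.04 without wild-type replicate 3. After a fresh quantile normalization 17 were higher with a median of 0.08. The list's mean per array overlapped, at 0.14, 0.10 and 0.15 in the mutant against -0.02, 0.11 and -0.08. Of the 24, 3 were apart and higher (12.5%) and 0 apart and lower, beside 8.94% and 4.46% of well-expressed genes. The cytochrome c oxidase subunits Cox5b (0.47, SE 0.22) and Cox7b (0.45, SE 0.26) and cytochrome c itself (Cycs, 0.23, SE 0.12) were apart and higher in mock, and with NAC they were apart and higher again at 0.61, 0.58 and 0.32. In Cox5b and Cox7b the wild-type arrays ran from 8.53 to 9.27 and from 8.89 to 9.56, with replicate 1 lowest in both. Mitochondrial ribosomal protein genes (23 of 34 higher, median 0.08) and cytosolic ribosomal protein genes (23 of 33, median 0.03) lay closer to the medians of all genes.

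**Figure D4:**
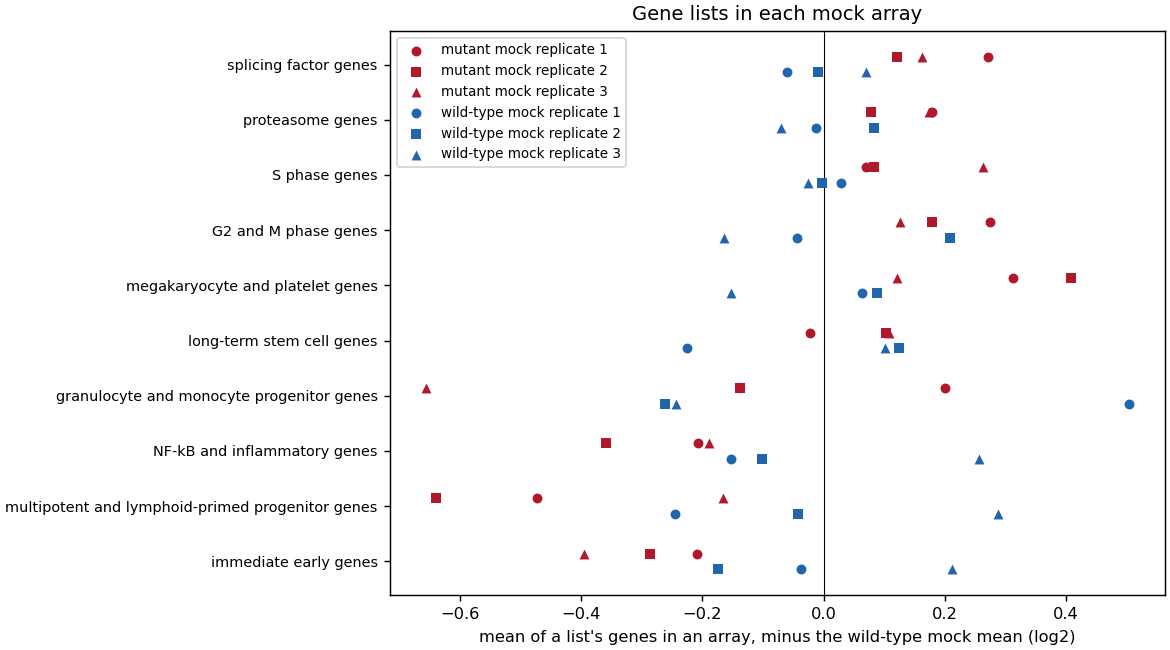
Mean of each list's genes in each of the 6 mock arrays, relative to the wild-type mock mean (x axis, log2), for 10 gene lists; symbols mark the replicates. Mutant and wild-type arrays do not overlap for splicing factor, S phase, megakaryocyte and platelet, NF-kB and immediate early genes, and wild-type replicate 3 stands highest of all 6 arrays in the NF-kB and immediate early lists.

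Immediate early genes, which are transcribed within minutes of a signal, were lower in the mutant. Of 23 measured 21 were lower with a median of -0.29, 7 apart and lower and 0 apart and higher, against 5.46% and 5.94% of all genes. The promoter of Btg2, an antiproliferative member of this list, is shown because it holds the cAMP response element (CRE). The window, strand and source are as for the cell cycle genes, and capitals mark only the CRE (TGACGTCA).
Btg2 (chr1:134079106-134079405, minus strand): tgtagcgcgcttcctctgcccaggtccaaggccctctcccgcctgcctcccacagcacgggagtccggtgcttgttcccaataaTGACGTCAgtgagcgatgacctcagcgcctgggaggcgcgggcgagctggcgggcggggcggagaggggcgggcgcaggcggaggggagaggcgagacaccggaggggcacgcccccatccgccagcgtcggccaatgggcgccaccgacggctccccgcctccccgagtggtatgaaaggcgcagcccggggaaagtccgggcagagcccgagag

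A CRE was found in 2 of the 19 immediate early genes with a promoter in the table (10.5%) and in 1.88% of all promoters, and the CArG box of serum response factor in 1 of 19 (5.26%) and in 1.57%. Btg2 itself gave 8.90, 8.85 and 8.79 in the mutant and 9.42, 9.25 and 9.56 in wild type (-0.56, SE 0.12, adjusted p = 0.358). The mutant arrays agreed within 0.11 and lay at least 0.35 under wild type, and with NAC the difference was -0.53, again apart.

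The other members apart were lower too, with gaps between the groups of 0.03 to 0.51. Egr1, a zinc finger factor of growth signals, gave 8.15, 7.72 and 7.21 in the mutant and 8.49, 8.32 and 8.35 in wild type (-0.69, SE 0.27). Nr4a1, an orphan nuclear receptor, gave 10.08, 10.18 and 10.12 against 10.51, 10.34 and 10.84 (-0.44, SE 0.20), and Fos gave 8.26, 8.12 and 8.21 against 8.29, 8.46 and 8.91 (-0.36, SE 0.17). The gap between the groups was 0.17 in Egr1, 0.16 in Nr4a1 and 0.03 in Fos. Klf4, a stem cell and differentiation factor, gave 4.69, 4.65 and 4.59 against 5.36, 5.20 and 5.48 (-0.70, SE 0.24), with the widest gap of these genes, 0.51. Fosb (-0.63, SE 0.20) and the phosphatase Dusp1 (-0.29, SE 0.15) were apart, and Nr4a3 (-0.65, SE 0.28) was not. The list's mean per array was apart, at -0.21, -0.29 and -0.40 in the mutant against -0.04, -0.17 and 0.21. Without wild-type replicate 3, the highest array, the median was -0.15. With NAC 22 of the 23 were lower with a median of -0.28.

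NF-kB and inflammatory genes showed the same direction. Of 19 measured 17 were lower with a median of -0.17, and the 8 well-expressed ones had a median of -0.53. Of the 19, 3 were apart and lower and 0 apart and higher, beside 5.46% and 5.94% of all genes. Without wild-type replicate 3, 13 were lower with a median of -0.115, and 3 were apart and lower and 1 apart and higher. The list's mean per array was narrowly apart, at -0.21, -0.36 and -0.19 in the mutant against -0.15, -0.10 and 0.26. Nfkbid gave 5.80, 5.53 and 6.01 in the mutant and 6.32, 6.40 and 6.94 in wild type. The chemokine Ccl4 gave 8.79, 8.63 and 9.10 against 9.25, 9.24 and 10.01, and Ccl3 gave 8.85, 8.88 and 9.19 against 9.34, 9.24 and 9.91 (-0.52, SE 0.20). These 3 were apart, with wild-type replicate 3 highest in each. Tnf, the tumour necrosis factor gene (-0.65, SE 0.31), and Cxcl2, a neutrophil chemokine (-0.53), overlapped. With NAC 17 of the 19 were again lower with a median of -0.37, on arrays that the mock comparison does not use.

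The BCL2 family, interferon and antioxidant lists, chosen for Bid, type I interferon and reactive oxygen species in the series title, had medians between -0.07 and 0.11. Bid, which links death receptors to mitochondria, gave 4.77, 5.0 and 4.82 in the mutant and 4.62, 4.51 and 4.23 in wild type (0.41, SE 0.14, adjusted p = 0.643). All 3 mutant arrays lay above wild type, by at least 0.15, while with NAC the difference was -0.13 (adjusted p = 0.999 for the interaction). Of 15 BCL2 family genes 11 were higher with a median of 0.11. Apart and higher were 2, Bid and the survival gene Bcl2a1a (0.49, SE 0.23), and 0 were apart and lower, beside 5.94% and 5.46% of all genes. Bcl2a1a lay under the level of the median gene, with a gap of only 0.01 between the groups. With arrays centred on the median, 1 member was apart and higher and 1 apart and lower. Bcl2l11, which encodes the death-promoting Bim, differed by -0.52 (SE 0.20) with overlapping groups. The list's mean per array was apart, at 0.05, 0.13 and 0.12 in the mutant against 0.00, -0.02 and 0.02, while with NAC 5 members were higher and 10 lower with a median of -0.07. The median in mock was 0.06, 0.05 and 0.07 without mutant replicates 1 and 3 and wild-type replicate 3, and 0.07 after a fresh quantile normalization.

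Of 23 type I interferon-stimulated genes 14 were lower and 9 higher with a median of -0.07, but without mutant replicate 2 it was 0.02 with 12 higher, and without mutant replicate 3 it was -0.175. The antiviral gene Ifit2 was apart and higher (0.55, SE 0.22) and Xaf1, an interferon-induced death regulator, apart and lower (-0.47, SE 0.17). Rtp4 differed by -0.60 (SE 0.24) and Oas2, an RNA sensor, by 0.44 (SE 0.32), both with overlapping groups. Of 22 antioxidant and glutathione genes 11 were higher and 11 lower with a median of 0.01. The glutathione synthesis subunit Gclm differed by 0.38 (SE 0.22), and Srxn1 (0.26, SE 0.13) and the superoxide dismutase Sod1 (0.09, SE 0.11) were apart and higher, with Sod1 at -0.0015 after a fresh quantile normalization. Of 16 p53 target genes 10 were lower with a median of -0.09, which was 0.0025 without wild-type replicate 2 and -0.027 without mutant replicate 2, with 8 lower each time. Trp53inp1, a p53-induced nuclear protein, was apart and lower (-0.47). Of 21 DNA repair genes 16 were higher with a median of 0.10. Brca2 gave 6.44, 6.48 and 6.82 in the mutant and 5.94, 5.91 and 6.20 in wild type, and the kinase Chek2 (0.34, SE 0.15) and the mismatch repair gene Msh6 (0.23, SE 0.11) were apart and higher. The end-joining genes Xrcc6 and Lig4 were apart and lower. Xrcc6 differed by -0.17 (SE 0.13), and Lig4 gave 2.86, 2.88 and 2.90 in the mutant against 3.27, 3.75 and 3.06 (-0.48, SE 0.19), near the level of the median gene.

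Polycomb genes had 4 apart and higher and 3 apart and lower of 21 measured, with a median of 0.03. These are 19.0% and 14.3%, beside 5.94% and 5.46% of all genes. Ezh1 and Ezh2, the alternative methyltransferases of Polycomb repressive complex PRC2, went opposite ways. Ezh2 gave 7.89, 7.65 and 7.78 in the mutant and 7.29, 7.48 and 7.55 in wild type (0.33, SE 0.12). Ezh1 gave 6.54, 6.01 and 6.14 against 6.80, 6.62 and 7.14 (-0.62, SE 0.25, and 0.27 with NAC). Suz12, another subunit of that complex, was apart and higher (0.30, SE 0.11), as were Pcgf5 and Phc1 (0.23 and 0.12), and Rnf2 (-0.29, SE 0.13) and Phc2 (-0.31, SE 0.11) of the ubiquitinating complex were apart and lower. Another list held 15 genes of histone H3K4 methyltransferases, their relatives and members of their complexes. Of these 8 were higher and 7 lower with a median of 0.01, and Kmt2e itself was counted among the lower ones. Cxxc1, a CpG-binding subunit, was the 1 that was apart. Kdm6a, a demethylase of these complexes, differed by 0.35 and Kmt2b by -0.27, with overlapping groups.

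Chemokine and adhesion receptor genes held 2 of the larger differences of dim genes. Of 20 measured 12 were higher with a median of 0.13, 4 apart and higher and 0 apart and lower, beside 5.94% and 5.46% of all genes. Cx3cr1, the fractalkine receptor of monocytes, gave 5.30, 5.04 and 5.56 in the mutant and 3.86, 4.12 and 4.81 in wild type (1.04, SE 0.38, and -0.04 with NAC). Cxcr2 has been given above, and Itga4, the integrin chain that holds stem cells in the marrow, gave 7.75, 7.65 and 7.52 against 7.30, 7.14 and 7.27 (0.40, SE 0.12). The wild-type arrays of Cx3cr1 spread over 0.95 and those of Itga4 over 0.16. The list's median ran from 0.02 without mutant replicate 3 to 0.23 without wild-type replicate 3, and was 0.06 and 0.21 without mutant replicates 1 and 2 and 0.04 without wild-type replicate 1. Cytokine receptor genes (12 of 23 higher, median 0.01), heat shock genes (5 of 13, -0.10), sterol synthesis genes (8 of 14, 0.04), glycolysis and hypoxia genes (9 of 18, 0.01) and ATF4 target genes (8 of 18, -0.01) had medians of 0.10 or less in size.

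The 6 NAC arrays share no array with the mock groups, although all 12 arrays gave 1 estimate of the spread, and they were set beside the mock comparison. With NAC limma called 0 of 22180 genes (0%) between the genotypes (1590 at an unadjusted p under 0.05), and 0 (0%) for the interaction of genotype and NAC (934 at an unadjusted p under 0.05, smallest adjusted p = 0.243). Among the 4464 well-expressed genes the NAC groups were apart with the mutant higher for 451 (10.1%) and lower for 321 (7.19%). Of the 399 genes apart and higher in mock, 75.9% were higher in the mutant with NAC, against 52.2% of all well-expressed genes, and 99 were apart and higher again. Of the 199 apart and lower in mock, 76.4% were lower with NAC, against 47.6%, and 38 were apart and lower again.

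Of the 25 largest higher genes 19 were higher with NAC, 9 of them apart, and of the 25 largest lower genes 19 were lower, 9 of them apart. Srpk2 (0.49), Usp14 (0.55), Slc36a4 (0.76) and Mrpl47 (0.89) were among those higher in both, and Slc35d3 (-0.96), Flt3 (-0.88), Egr1 (-0.99), Nfkbid (-0.84) and Clnk (-0.73) among those lower in both. Others had a difference near 0 or on the other side with NAC: Clec2i (0.03), Timm10b (-0.48), Brca2 (-0.11), Ezh1 (0.27) and Gprc5b (0.36), the last being apart in the opposite direction. None of these passed the test of the interaction (smallest adjusted p = 0.817 over the 50 genes), so a difference between mock and NAC was not shown for them.

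**Figure D5:**
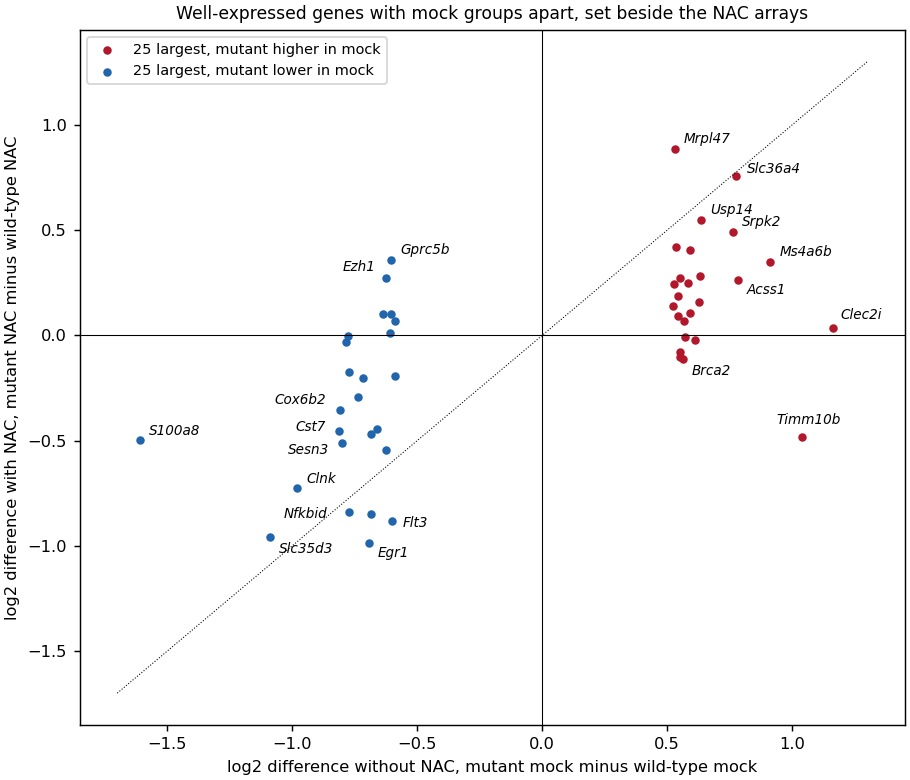
Log2 difference between mutant and wild-type cells with NAC (y axis) against that without NAC (x axis) for the 25 largest higher (red) and 25 largest lower (blue) well-expressed genes with mock groups apart; the x axis chose these genes and the dotted line marks equal differences. Of each 25, 19 lie on the same side of 0 with NAC, and Timm10b and Gprc5b lie on the other side.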

How the data were processed

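RNA of sorted LSK cells was hybridised to Affymetrix arrays, 1 array per sample. Per the submitters' processing notes, the authors summarised probes with Affymetrix Power Tools by RMA, which corrects background, quantile normalizes and takes logs. The deposited values were read as log2: the base is not stated and was taken from their range, 0.74 to 13.23. The sources used here give no tool versions.

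Of 41345 probe sets, 23521 carried 1 gene symbol in the platform annotation and 1814 several, and probe sets with several or none (17824 in all) were not named. Symbols of 23328 probe sets matched the RefSeq gene table of GRCm38.p6. Where a symbol had several probe sets (1082 of 22180 symbols), the one with the highest mean signal on the 12 arrays stood for it. Levels of different probe sets were not compared as amounts.

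A mean per group was fitted to the 12 arrays in limma 3.58.1 under R 4.3.3 (lmFit, eBayes), with Benjamini-Hochberg adjustment over all 22180 genes. The fit was tested on simulated data. The text names Kmt2e, Bid, Kit and the neighbours of Kmt2e, genes past an adjusted p of 0.05, the 25 largest differences per direction among well-expressed genes with groups apart, the 5 smallest p per direction and up to 4 members with the largest difference per list. Predicted and clone names and antibody or receptor segments were given by counts, unless called, beside Kmt2e or, as with Ighm, a member of a list. The members and lists were chosen with earlier results of these data known. Same-numbered arrays did not deviate together (correlations 0.05, 0.00 and 0.02), so the numbers were not used as pairs. Promoter windows came from the RefSeq promoter table of GRCm38.p6, and both strands were searched.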

Additional observations from a re-analysis of the deposited data

Results flagged for a closer look

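A probe set that carries no gene symbol in the annotation, 17547865, lay outside the genes that were compared. It was the 1 of 17824 probe sets with several symbols or none that passed the test. Its log2 signal was 6.61, 6.50 and 6.26 in the 3 mutant mock arrays and 2.77, 2.91 and 3.31 in the 3 wild-type mock arrays. Every mutant array lay far above every wild-type array, with a log2 difference of 3.46 (SE 0.26, 11.0-fold, limma adjusted p = 0.00246 over all 41345 probe sets). With NAC it gave 6.18, 6.11 and 6.73 in the mutant and 3.79, 2.90 and 2.99 in wild type, a difference of 3.11 (adjusted p = 0.00361). What it reads is not given in the annotation used here.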

How the results depend on the processing

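The count of 2 genes past the threshold was 0 among genes with a mean of at least 6 and 0 among those with a mean of at least 7, since both called genes lie below these levels. It was 1 when only the mock arrays were fitted, where Jchain passed and the 2 others did not, and 1 with the replicate number as a replicate block, where AI506816 passed. Leaving out 1 array gave 1 to 4 genes, with Mypop added without mutant replicate 2, Chrnb1 and Cnn3 without mutant replicate 3 and Igkv4-59 without wild-type replicate 3. Under the other alternatives it was 2. The 598 well-expressed genes with groups apart were 552 to 614 under other scalings and 991 to 1158 with 1 array left out, where fewer arrays have to separate. The count cannot change with the variance model, the array weights, the arrays fitted or the replicate block, which were not run for it. Of the 38 list medians, 11 kept their sign under all 16 alternatives and 27 did not. Fitting only the mock arrays or adding the replicate block leaves the differences unchanged, so neither could move a median. The level filters can leave few members of a list. The B cell median rose from -0.12 to 0.06 where 1 well-expressed member was left. Some lists had no member left under a filter and so had fewer alternatives, down to 14. Cd34, at 0.053 with all arrays, ranged from -0.0033 without wild-type replicate 1 to 0.0817 without wild-type replicate 2, and Sod1 by -0.0015 after a fresh quantile normalization. Centring on the median of well-expressed genes was chosen after seeing the data; it left 64.3% of the genes with groups apart higher in the mutant. The 3 arrays a group and the low signal of dim genes limit what could be called.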
